A study of Homo sapiens with 6 samples.

Results

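The genes of the PI3K, AKT, mTOR and FOXO pathway were followed in the human myeloma cell line MM.1S after transduction with a short hairpin RNA (shRNA) against KDM6B or against luciferase. The 40 members were named by symbol as receptors and adaptors, kinases, phosphatases, mTOR complex subunits and effectors, and all 40 symbols were found among the 56637 listed in the count tables. Of these, 39 had enough counts to be tested, among 13839 tested genes in all. PIK3R5, a regulatory subunit used with PI3K gamma, had 0 counts in all 6 libraries, where 3 counts, scaled to library totals alone, make 0.305 to 0.409 CPM. CPM are a gene's counts scaled to a common library size, elsewhere with TMM factors as well. Each group had 3 libraries, the shLuc and shKDM6B replicates 1 to 3. All 6 came from puromycin-selected cells of the same line, grown in the same medium and infected with lentivirus. The luciferase hairpin is the control, and KDM6B encodes a demethylase of histone H3 lysine 27. A single hairpin label is given for each group, so what loss of KDM6B did and what else either hairpin did cannot be told apart.

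Signals through this pathway begin at receptors such as the IGF1 receptor, whose adaptors IRS1 and IRS2 recruit class I PI3K. PI3K makes the membrane lipid PIP3, on which PDK1 and then mTORC2 activate AKT, and lipid phosphatases remove that signal. AKT inhibits the TSC complex, which otherwise holds the GTPase RHEB inactive, so that RHEB can turn on mTORC1 and protein synthesis, and AKT keeps FOXO transcription factors out of the nucleus. Most of this control acts through phosphorylation, which RNA counts do not measure. The pathway serves growth and survival of myeloma cells, in which IGF1 is a well-known stimulus.

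Library totals ran from 7338393 to 8996159 counts in shLuc and from 7952156 to 9848351 in shKDM6B. KDM6B was at 53.8 ± 4.90 CPM (SD, n = 3) in shLuc and 32.6 ± 2.37 CPM (SD, n = 3) in shKDM6B, with no overlap between groups (log2 fold change -0.71, SE 0.0735). All 7 plasma cell markers looked for were detected, with a summed level of 2250 to 2430 CPM in shLuc and 2140 to 2390 CPM in shKDM6B. Of these 7, CD38 (log2 fold change -0.45, SE 0.0517) and TNFRSF17 (-0.37, SE 0.0477) were lower and PRDM1 was higher (0.15, SE 0.0488), PRDM1 not past the threshold in 6 of the 16 alternative fits. Of 4 mature B cell markers, CD22 was at 0 everywhere and CR2 alone stood at 95.6 ± 3.47 and 92.3 ± 7.66 CPM (SD, n = 3 each). Epithelial markers, 9 of 9 with some count, summed to 2.94 to 12.2 CPM in shLuc and 2.02 to 44.8 CPM in shKDM6B. Their sum stood highest in shLuc replicate 1 and shKDM6B replicates 1 and 2. KRT14, KRT19 and KRT5 passed as higher in shKDM6B (log2 fold changes 2.93, SE 0.741, 2.43, SE 0.781, and 2.29, SE 0.803), though their groups overlapped. EPCAM went the other way, at 1.69 ± 0.452 and 0.934 ± 0.359 CPM (SD, n = 3 each), and did not pass. The part of these markers in the results was not tested. Results are given without the 3 libraries with the highest sums where the call differed. These are called below the 3 libraries with epithelial markers, though all 6 libraries had some counts of such markers. That fit keeps 1 shKDM6B library, which widens its SE. Markers of T cells, monocytes and fibroblasts summed to at most 9.94, 3.11 and 3.23 CPM in any library, with CD3G, FCGR3A and LUM at 0 in all 6.

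The pathway did not move as a block: 10 of the 39 tested members were higher in shKDM6B, 10 were lower and 19 did not pass the threshold. The adaptor genes IRS1 and IRS2, the TSC complex gene TSC1 and the mTORC2 gene RICTOR fell, whereas the receptor gene IGF1R, the phosphatase gene PHLPP2, TSC2 and the translation inhibitor gene EIF4EBP2 rose. Passing means an adjusted p under 0.05 in edgeR's quasi-likelihood test, adjusted by Benjamini-Hochberg over all 13839 genes. The share of members past it was 51.3%, against 39.1% of all tested genes. Among the 4147 tested genes whose shLuc level lay between 55.6 and 162 CPM, the quartiles of the members, the share was 47.3%. The 51.3% also covers members outside that range, so it and the 47.3% describe unlike sets. By direction, 25.6% of members were higher and 25.6% lower, against 20.1% and 18.9% of all tested genes. In bulk RNA, fewer cells expressing a gene and less of its RNA per cell cannot be told apart. Most changes were modest. Only IRS2, INPP4B and PHLPP2, 3 of 39, were past the threshold with a change of at least 1.5-fold, against 9.38% of tested genes. The median log2 fold change of the members was -0.002, beside -0.005 over all tested genes, and the median size was 0.146 beside 0.163. Groups did not overlap in CPM for 19 members, or 48.7%, against 48.4% of all tested genes. These shares lie near the background, and what follows concerns which members moved. Each role holds 3 to 7 tested members, so its counts are only descriptive. Over all tested genes calls also went in both directions.

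**Figure D1:**
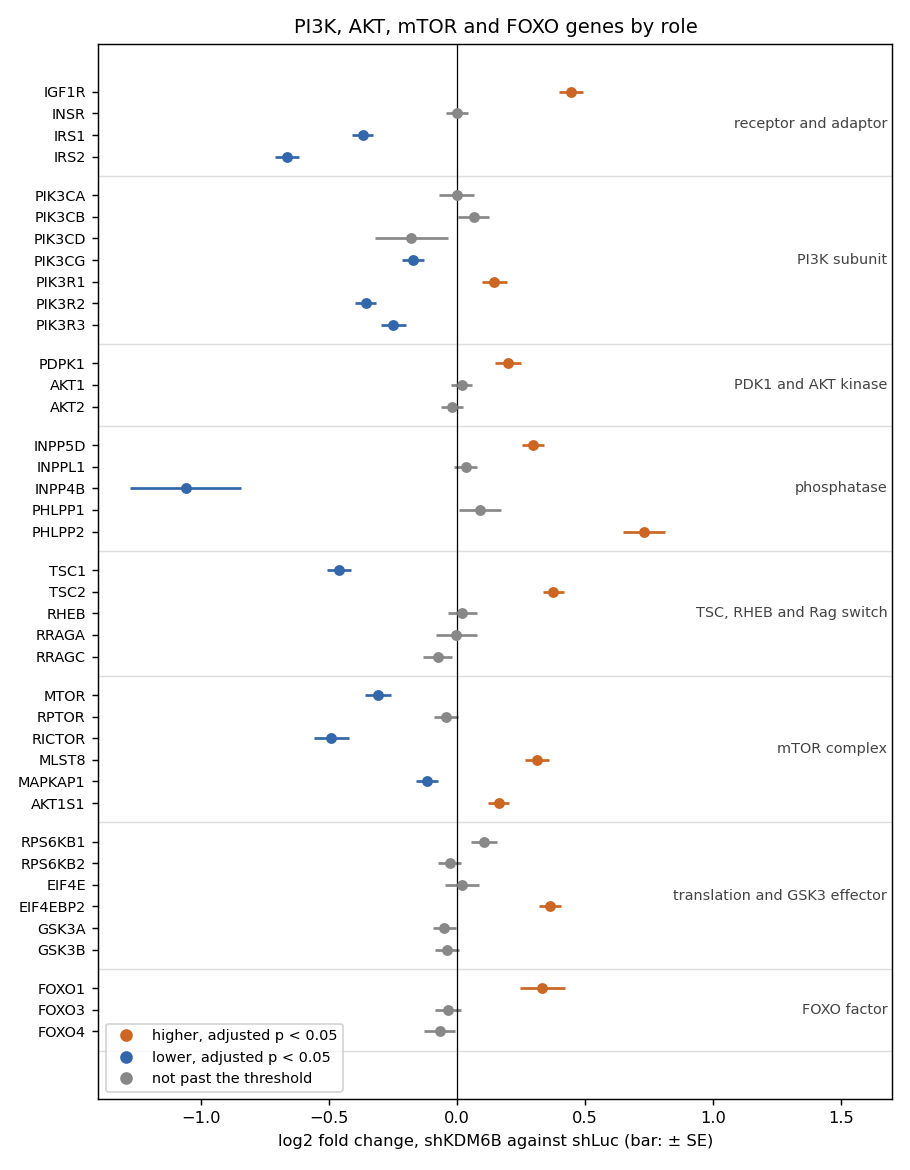
Log2 fold change of shKDM6B against shLuc for the 39 tested members, grouped by role, with bars of ± SE; orange and blue points passed the threshold as higher and lower, and grey points did not. The 10 members on each side run from INPP4B at -1.06 to PHLPP2 at 0.73, and several roles hold members on both sides of 0.

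Levels between genes can be compared only per length of transcript, for which CPM were divided by kilobases of merged exons in GENCODE release 29 (RPKM). On this scale INPPL1 and FOXO3 were the most abundant members in shLuc, at 54.0 ± 1.45 and 48.8 ± 1.44 RPKM (SD, n = 3 each). Among the PI3K catalytic subunits, PIK3CG stood at 20.6 ± 0.574 RPKM, followed by PIK3CB at 7.27 ± 0.613, PIK3CA at 4.11 ± 0.207 and PIK3CD at 1.33 ± 0.124 RPKM (SD, n = 3 each). None of these 4 neighbours overlapped within shLuc. The SD between libraries does not cover errors of exon length or read assignment, which all libraries share. PIK3CA shares 35.8% of its exon bases with a gene on the opposite strand, so its place in this order is uncertain. PIK3CG encodes the gamma catalytic subunit, which is known mainly from blood cells. The regulatory gene PIK3R6, like PIK3R5, had 0 counts in all 6 libraries. AKT2, at 22.6 ± 0.297 RPKM, exceeded AKT1, at 13.8 ± 0.363 RPKM (SD, n = 3 each). INPP4B was the least abundant tested member at 0.349 ± 0.0515 RPKM. Merged exons include rare long transcript forms, so the level of a gene such as EIF4E (2.53 ± 0.0609 RPKM over 14067 exon bases) is understated.

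At the top of the pathway the receptor gene IGF1R rose and both insulin receptor substrate genes fell. Of the 4 receptor and adaptor members, 1 was higher, 2 were lower and 1 did not pass, where 39.1% of all tested genes passed. In replicates 1 to 3, the order used for all raw counts below, IGF1R had 1095, 1407 and 1481 counts in shLuc and 1597, 1896 and 2124 in shKDM6B. All 3 shKDM6B libraries lay above all shLuc libraries in CPM, at 215 ± 11.6 against 157 ± 6.53 CPM (SD, n = 3 each), a 1.36-fold difference (log2 fold change 0.45, SE 0.0473, adjusted p = 1.17e-07). INSR, the gene of the related insulin receptor, was at 190 ± 6.33 and 190 ± 6.84 CPM (SD, n = 3 each), with a log2 difference of 0.00066 (SE 0.0440).

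IRS2 fell most among the adaptors, from 979, 1250 and 1224 raw counts to 657, 768 and 830. Its level went from 137 ± 3.77 to 86.4 ± 4.66 CPM (SD, n = 3 each), 0.631 of the control, with no overlap (log2 fold change -0.67, SE 0.0471, adjusted p = 2.45e-10). IRS1 had 1727, 2139 and 2079 counts in shLuc and 1424, 1512 and 1841 in shKDM6B, or 236 ± 6.33 and 183 ± 2.83 CPM (n = 3 each, SD; fitted log2 fold change -0.37, SE 0.0424, adjusted p = 3.76e-07). Every shKDM6B library was below every shLuc library for both genes.

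Because IRS1 and IRS2 fell together, their promoters are shown, as the 250 bases before the start from RefSeq's table on GRCh38.p14. IRS2 is known as a target of FOXO factors, which bind the insulin response sequence. Capitals mark TGTTTTG, a form of that sequence, the FOXO motif GTAAACA or the ETS motif CCGGAA, each searched on both strands; the first and the last were chosen after values had been seen. IRS1 lies at chr2:226799821-226800070 and IRS2 at chr13:109786584-109786833, both on the minus strand.
IRS1: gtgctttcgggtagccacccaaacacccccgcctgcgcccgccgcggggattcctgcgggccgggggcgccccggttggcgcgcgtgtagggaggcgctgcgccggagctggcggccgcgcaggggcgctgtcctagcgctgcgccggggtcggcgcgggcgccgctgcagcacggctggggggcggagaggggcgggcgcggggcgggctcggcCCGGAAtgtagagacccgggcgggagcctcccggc
IRS2: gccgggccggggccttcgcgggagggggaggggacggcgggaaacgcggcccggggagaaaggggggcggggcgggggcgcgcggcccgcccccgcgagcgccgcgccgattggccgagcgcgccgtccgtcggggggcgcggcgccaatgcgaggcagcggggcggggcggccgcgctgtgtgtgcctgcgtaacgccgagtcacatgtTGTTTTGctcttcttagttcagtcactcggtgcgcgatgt
The TGTTTTG match of IRS2 begins 40 bases before the start, and the CCGGAA match of IRS1 begins 35 bases before it. Windows of 300 bases (250 before to 50 after the start) were counted per gene. TGTTTTG or its reverse complement was in a window of 6.05% of 27305 genes (4.92% of all 35116 windows) and of 4 of the 37 members with a window. GTAAACA was in a window of 4.19% of genes (3.42% of windows) and in those of PIK3CA and FOXO4, neither of which passed the threshold. CCGGAA was in a window of 20.1% of genes (17.2% of windows) and of 13 members. Of these 13, PIK3R5 was not tested and 8 had passed, and of the 4 members with TGTTTTG 2 had passed. Among all tested members 51.3% passed, and among all tested genes 39.1%. The share past the threshold among all genes with a given motif was not computed, so these counts have no matching background.

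Among the PI3K subunits, the regulatory genes PIK3R2 and PIK3R3 and the catalytic gene PIK3CG fell and the regulatory gene PIK3R1 rose. Of the 7 tested subunits 1 was higher, 3 were lower and 3 did not pass, so that 57.1% passed, against 39.1% of all tested genes. PIK3R2, encoding p85 beta, went from 1164, 1440 and 1452 raw counts to 971, 1047 and 1268. In CPM this was 161 ± 1.57 against 126 ± 2.24 (SD, n = 3 each), without overlap (log2 fold change -0.36, SE 0.0415, adjusted p = 4.54e-07). In GENCODE release 29, 87.2% of the exon bases of PIK3R2 are shared with an overlapping gene model on the same strand, so its count depends on how such reads were assigned. Same-strand sharing was 22.9% in RRAGC, 17.4% in PIK3R3 and 11.6% in GSK3A. Bases shared with the opposite strand made up 35.8% of PIK3CA and 23.7% of PDPK1. PIK3R3, encoding p55 gamma, had 534, 689 and 688 counts in shLuc and 490, 553 and 623 in shKDM6B, or 75.6 ± 2.25 and 63.8 ± 2.01 CPM (n = 3 each, SD; fitted log2 fold change -0.25, SE 0.0497, adjusted p = 0.000366). Its groups did not overlap.

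PIK3R1, encoding p85 alpha, moved the other way, with 593, 726 and 785 counts in shLuc and 682, 783 and 950 in shKDM6B. The level was 83.3 ± 2.78 against 92.1 ± 4.72 CPM (n = 3 each, SD; fitted log2 fold change 0.15, SE 0.0492, adjusted p = 0.0221). The closest libraries of the 2 groups stood at 86.5 and 86.8 CPM. This call was lost when shLuc replicate 1 (adjusted p = 0.0729) or 2 (0.0892) was left out, or shKDM6B replicate 2 (0.0855) or 3 (0.109), and by the DESeq2 Wald test (adjusted p = 0.134). Of the catalytic subunits only PIK3CG passed, from 862, 1100 and 1128 to 841, 903 and 1096 raw counts. In CPM its groups did not overlap, at 122 ± 3.40 and 109 ± 1.87 (n = 3 each, SD; fitted log2 fold change -0.17, SE 0.0432, adjusted p = 0.00277), and it did not pass when the libraries were scaled by genes of low count density, under 0.03 counts per exon base (adjusted p = 0.144). PIK3CA, PIK3CB and PIK3CD had log2 differences of -0.0012 (SE 0.0693), 0.064 (SE 0.0609) and -0.18 (SE 0.143), and PIK3CD had 54 to 84 raw counts per library.

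PDPK1, the gene of the AKT-activating kinase PDK1, was higher, while neither AKT gene passed. Raw counts of PDPK1 were 417, 481 and 528 in shLuc and 510, 548 and 639 in shKDM6B, or 56.6 ± 2.01 and 65.0 ± 0.492 CPM (n = 3 each, SD; fitted log2 fold change 0.20, SE 0.0516, adjusted p = 0.00374). The groups did not overlap. The call was lost by the DESeq2 Wald test (log2 fold change 0.196, SE 0.0801, adjusted p = 0.0522) and without the 3 libraries with epithelial markers (0.198, SE 0.0847, adjusted p = 0.0670). In both the change was of the same size and its SE larger. A near-identical copy, listed as PDPK2, had 0 to 4 counts per library, and reads shared with it may have been lost. AKT1 was at 154 ± 4.06 and 155 ± 3.15 CPM (log2 difference 0.018, SE 0.0423) and AKT2 at 339 ± 4.46 and 335 ± 3.11 CPM (log2 difference -0.020, SE 0.0430; SD, n = 3 each).

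Among the phosphatases that oppose AKT, PHLPP2 and INPP5D rose, INPP4B fell, and INPPL1 and PHLPP1 did not pass. PHLPP2 encodes a phosphatase that removes an activating phosphate from AKT, and it rose most of all 39 tested members. Raw counts were 154, 206 and 243 in shLuc and 289, 347 and 401 in shKDM6B. The level was 23.7 ± 2.84 against 39.6 ± 2.47 CPM (SD, n = 3 each), 1.66-fold, with no overlap (log2 fold change 0.73, SE 0.0822, adjusted p = 2.81e-07). Exons of PHLPP2 share 11.0% of their bases with genes on the opposite strand, chiefly MARVELD3. MARVELD3 itself went down, from 71, 109 and 96 to 45, 60 and 78 raw counts (log2 fold change -0.64, SE 0.147). PHLPP1, the related gene, was at 36.6 ± 5.22 and 39.2 ± 2.63 CPM (SD, n = 3 each; log2 difference 0.090, SE 0.0825).

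INPP5D encodes SHIP1, the 5-phosphatase of PIP3 found mainly in blood cells, and had 882, 1121 and 1094 raw counts in shLuc and 1188, 1240 and 1515 in shKDM6B. That was 123 ± 3.34 against 151 ± 2.41 CPM (SD, n = 3 each), again without overlap (log2 fold change 0.30, SE 0.0425, adjusted p = 7.78e-06). INPPL1, which encodes the related SHIP2, was at 352 ± 9.44 and 360 ± 6.96 CPM (log2 difference 0.034, SE 0.0444). INPP4B, encoding a 4-phosphatase that acts on the product of the SHIP enzymes, had the largest fold change and the fewest counts of the 39 tested members. It went from 35, 38 and 52 to 16, 19 and 27 raw counts, or 4.94 ± 0.729 to 2.34 ± 0.350 CPM (n = 3 each, SD; fitted log2 fold change -1.06, SE 0.216, adjusted p = 0.000444). Its groups did not overlap, and its size rests on few counts.

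**Figure D2:**
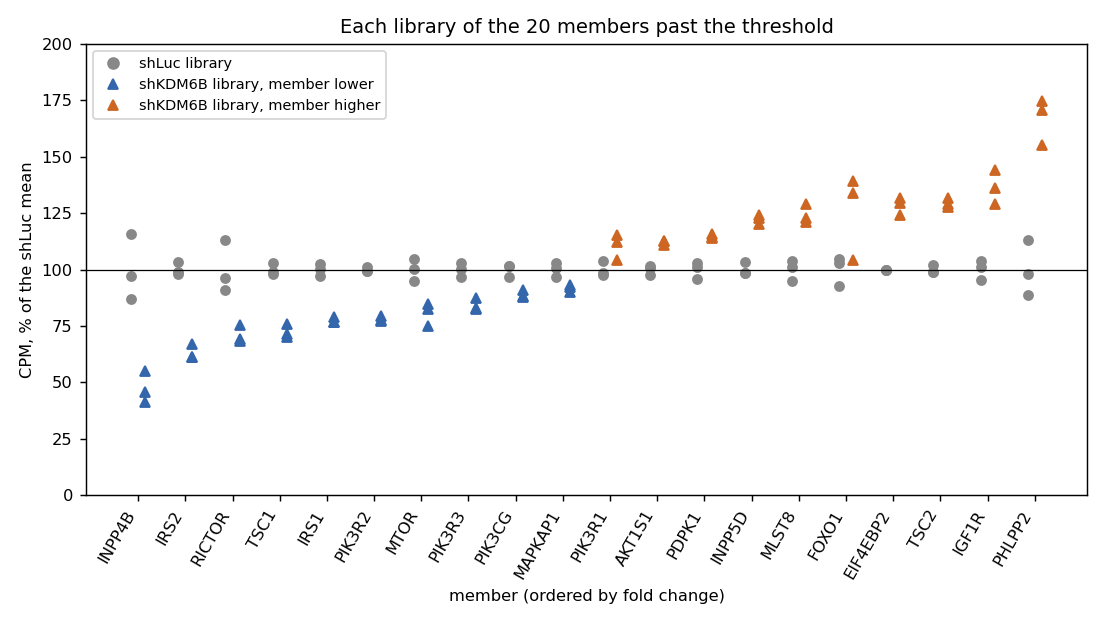
CPM of each library as a percent of the shLuc mean for the 20 members past the threshold, ordered by fold change; circles are shLuc libraries, triangles shKDM6B libraries. The shKDM6B libraries of INPP4B and IRS2 lie lowest and those of PHLPP2 highest, and FOXO1 is the member whose lowest shKDM6B library, at 31.7 CPM, falls below the highest shLuc library, at 31.8 CPM.

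The genes of the TSC complex, which holds RHEB in check, moved in opposite directions. TSC1, encoding hamartin, fell from 841, 1023 and 1095 to 648, 702 and 881 raw counts. TSC2, encoding tuberin, which carries the GTPase-activating activity, rose from 1286, 1564 and 1651 to 1818, 1911 and 2325. TSC1 was at 117 ± 2.97 and 85.1 ± 3.39 CPM (n = 3 each, SD; fitted log2 fold change -0.46, SE 0.0459, adjusted p = 4.55e-08), and TSC2 at 178 ± 3.06 and 231 ± 3.17 CPM (n = 3 each, SD; fitted log2 fold change 0.38, SE 0.0415, adjusted p = 2.16e-07). Neither gene's groups overlapped. Exon bases that TSC2 shares with its opposite-strand neighbours PKD1 and NTHL1 make up 6.0% of its exons, and both neighbours were higher too (log2 fold changes 0.32, SE 0.0434, and 0.43, SE 0.0588). Without strand, reads of the shared bases cannot be told apart, and counts of PKD1, which has near-identical pseudogenes, are uncertain.

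The promoters of TSC1 and TSC2 are set side by side because the genes of a single complex moved apart. The 250 bases before the start are from RefSeq's table on GRCh38.p14, TSC1 at chr9:132944617-132944866 on the minus strand and TSC2 at chr16:2047735-2047984 on the plus strand, the more upstream of its 2 windows. Capitals mark the ETS motif CCGGAA or its reverse complement TTCCGG.
TSC1: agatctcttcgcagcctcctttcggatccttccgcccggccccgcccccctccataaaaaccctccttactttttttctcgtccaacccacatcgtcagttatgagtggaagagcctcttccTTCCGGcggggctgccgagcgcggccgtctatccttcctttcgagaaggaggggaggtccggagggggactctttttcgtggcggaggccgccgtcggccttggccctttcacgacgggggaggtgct
TSC2: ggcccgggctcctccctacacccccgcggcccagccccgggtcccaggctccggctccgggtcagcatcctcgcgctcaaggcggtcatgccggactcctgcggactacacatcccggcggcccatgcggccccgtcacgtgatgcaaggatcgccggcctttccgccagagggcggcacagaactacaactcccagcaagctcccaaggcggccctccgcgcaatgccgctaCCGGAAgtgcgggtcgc
Each stretch held 1 ETS match, which begins 128 bases before the start in TSC1 and 17 bases before it in TSC2, and 0 matches to GTAAACA or TGTTTTG. Guanine and cytosine made up 62.0% of the TSC1 stretch and 71.6% of that of TSC2.

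RHEB, the GTPase that activates mTORC1, and the Rag GTPase genes RRAGA and RRAGC, which bring mTORC1 to the lysosome when amino acids are present, did not pass. Their log2 differences were 0.021 (SE 0.0557), -0.0023 (SE 0.0784) and -0.075 (SE 0.0571). RHEB was at 47.8 ± 0.707 and 48.5 ± 0.691 CPM (SD, n = 3 each).

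Subunits of the mTOR complexes split as well: MTOR, RICTOR and MAPKAP1 were lower, MLST8 and AKT1S1 higher, and RPTOR did not pass. These are 5 of 6 past the threshold, where 39.1% of all tested genes passed, 20.1% as higher and 18.9% as lower. MTOR, the kinase of both complexes, had 1525, 2036 and 2005 raw counts in shLuc and 1294, 1524 and 1843 in shKDM6B. In CPM, 220 ± 10.3 stood against 178 ± 11.4 (SD, n = 3 each), with no overlap (log2 fold change -0.31, SE 0.0495, adjusted p = 3.12e-05). RICTOR, the scaffold of mTORC2, went from 575, 660 and 841 to 448, 469 and 614 counts, or 82.1 ± 9.45 to 58.3 ± 3.18 CPM (n = 3 each, SD; fitted log2 fold change -0.49, SE 0.0674, adjusted p = 4.36e-06). Its groups did not overlap either.

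MAPKAP1, encoding the mTORC2 subunit SIN1, changed least of the members past the threshold. It had 1265, 1580 and 1514 raw counts in shLuc and 1268, 1342 and 1549 in shKDM6B, or 173 ± 5.84 and 159 ± 2.66 CPM (n = 3 each, SD; fitted log2 fold change -0.12, SE 0.0427, adjusted p = 0.0314). This call did not pass with scaling by genes of low count density (adjusted p = 0.487), with no filter on low counts (0.0599), by the DESeq2 Wald test (0.0979), or without the 3 libraries with epithelial markers (0.0623). In the last 2 the log2 fold change was -0.122 (SE 0.0571) and -0.141 (SE 0.0594), no smaller than in all libraries. Leaving out shLuc replicate 1 (0.0540) or 2 (0.156), or shKDM6B replicate 2 (0.0770) or 3 (0.102), also ended it.

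MLST8, a subunit of both mTOR complexes, rose from 843, 1004 and 959 to 1131, 1145 and 1338 raw counts. It stood at 112 ± 5.28 and 139 ± 4.71 CPM (SD, n = 3 each), without overlap (log2 fold change 0.31, SE 0.0462, adjusted p = 1.11e-05). AKT1S1 encodes PRAS40, an inhibitor of mTORC1 that AKT phosphorylates. Its raw counts were 1008, 1213 and 1209 in shLuc and 1204, 1279 and 1500 in shKDM6B, or 136 ± 2.69 and 152 ± 0.960 CPM (n = 3 each, SD; fitted log2 fold change 0.16, SE 0.0414, adjusted p = 0.00317). The groups lay apart. Exons of AKT1S1 share 8.8% of their bases with other genes, chiefly TBC1D17, which was lower (log2 fold change -0.19, SE 0.0468). RPTOR, the scaffold of mTORC1, was at 135 ± 7.34 and 131 ± 1.42 CPM (SD, n = 3 each; log2 difference -0.043, SE 0.0457).

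Of the 6 effectors of translation and of glycogen synthase kinase 3, only EIF4EBP2 passed, where 39.1% of all tested genes did. It encodes a repressor of the cap-binding factor eIF4E that mTORC1 inactivates, and rose from 1631, 1982 and 2029 to 2319, 2427 and 2755 raw counts. The level was 224 ± 0.203 against 288 ± 8.75 CPM (SD, n = 3 each), a 1.28-fold difference (log2 fold change 0.36, SE 0.0431, adjusted p = 6.37e-07). The lowest shKDM6B library, at 278 CPM, lay well above the shLuc libraries. EIF4E itself was at 35.6 ± 0.856 and 36.0 ± 1.41 CPM (SD, n = 3 each; log2 difference 0.020, SE 0.0657). The S6 kinase genes RPS6KB1 and RPS6KB2 had log2 differences of 0.11 (SE 0.0506, adjusted p = 0.105) and -0.029 (SE 0.0439). GSK3A and GSK3B, kinases that AKT inhibits, had differences of -0.050 (SE 0.0449) and -0.039 (SE 0.0471).

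FOXO1 was the FOXO gene that passed, as higher. It had 205, 282 and 284 raw counts in shLuc and 249, 355 and 404 in shKDM6B. In CPM it was at 28.2, 31.8 and 31.3 against 31.7, 42.4 and 40.8, so that the groups touched. The fitted log2 fold change was 0.33 (SE 0.0890, adjusted p = 0.00463), with a level of 30.4 ± 1.99 and 38.3 ± 5.78 CPM (SD, n = 3 each). FOXO3, the most abundant FOXO gene, was at 376 ± 11.1 and 367 ± 23.5 CPM (log2 difference -0.036, SE 0.0501), and FOXO4 at 55.4 ± 2.04 and 53.0 ± 4.02 CPM (log2 difference -0.068, SE 0.0602; SD, n = 3 each). FOXO3B, a near-identical copy of FOXO3, had 7 to 17 counts per library.

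The ratio of 2 related members within a library does not depend on how libraries are scaled. For 11 pairs named by paralogy or complex, ratios of raw counts were compared by an exact permutation test, two-sided, which with 3 libraries against 3 cannot give a p below 0.1. In 6 pairs the groups did not overlap and p was 0.1, the smallest possible (0.183 adjusted by Benjamini-Hochberg over the 11). For single genes, 48.4% of all tested genes did not overlap in CPM, and the share for other pairs of genes was not computed. The ratios restate the fold changes of their members given above and are not separate evidence. TSC1 to TSC2 shifted most. That ratio was 0.654, 0.654 and 0.663 in shLuc and 0.356, 0.367 and 0.379 in shKDM6B, a log2 difference of -0.84. PHLPP1 to PHLPP2 went from 1.46, 1.77 and 1.42 to 0.990, 1.003 and 0.983. PIK3R1 to PIK3R2 went from 0.509, 0.504 and 0.541 to 0.702, 0.748 and 0.749.

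IGF1R to INSR went from 0.821, 0.814 and 0.849 to 1.11, 1.18 and 1.09; as ratios of raw counts, these show the shift between groups and not which transcript was more abundant. RPTOR to RICTOR was 1.69, 1.92 and 1.38 against 2.27, 2.34 and 2.13, and INPP5D to INPPL1 was 0.336, 0.358 and 0.353 against 0.411, 0.417 and 0.428. The pairs AKT1 to AKT2, GSK3A to GSK3B, PIK3CA to PIK3CB, RPS6KB1 to RPS6KB2 and FOXO1 to FOXO3 overlapped between groups, with exact p from 0.3 to 1. Their log2 differences were 0.037, -0.010, -0.075, 0.13 and 0.36.

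**Figure D3:**
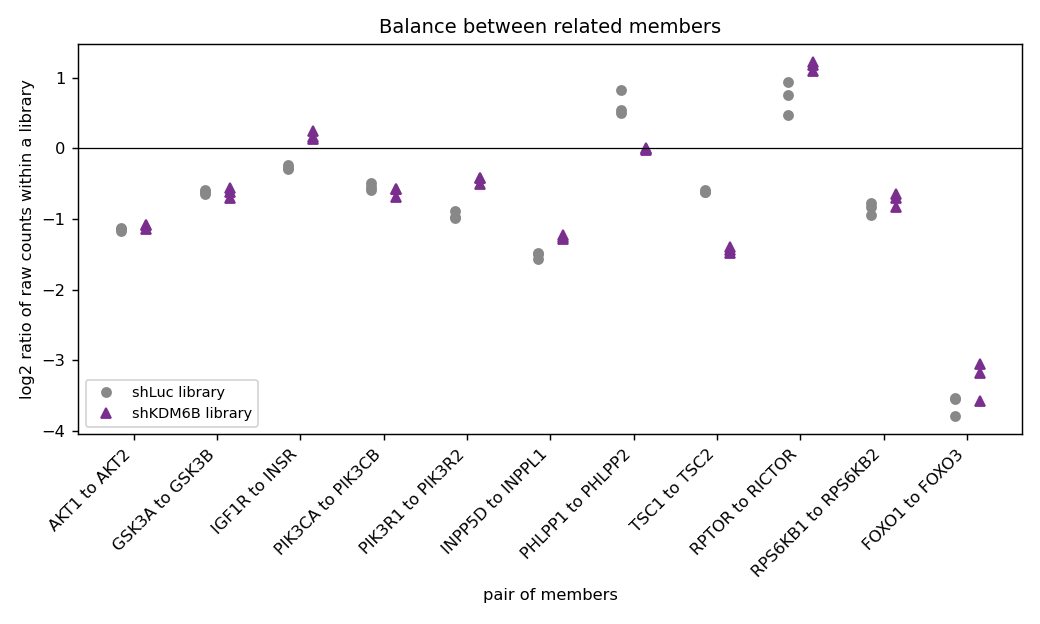
Log2 ratio of raw counts between 2 members within each library, for 11 pairs; circles are shLuc and triangles shKDM6B libraries. The groups lie apart for 6 pairs, most for TSC1 to TSC2 with a difference of -0.84, and overlap for the other 5.

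Further genes of the pathway were taken from 5 lists. Among other PI3K genes and adaptors, 3 of 14 tested rose, 2 fell and 9 did not pass, with a median log2 fold change of 0.034. The 35.7% past the threshold lie near the 39.1% of all tested genes. PIK3C2B, a class II PI3K, rose from 77.1 ± 2.02 to 116 ± 2.67 CPM (n = 3 each, SD; fitted log2 fold change 0.58, SE 0.0451). PIK3AP1, the B cell adaptor BCAP, had 103, 124 and 126 raw counts in shLuc and 209, 198 and 281 in shKDM6B (0.91, SE 0.0953). The docking protein gene GAB3 was also higher, with 21, 28 and 28 counts against 53, 45 and 86 (adjusted p = 7.18e-05 by edgeR), and its relative GAB2 was lower (-0.31, SE 0.0486).

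Sensors of amino acids and energy upstream of mTORC1 moved in both directions, as all tested genes did. Of 38 tested, 11 rose, 8 fell and 19 did not pass, and the median was -0.012. These are 28.9% higher and 21.1% lower, against 20.1% and 18.9% of all tested genes. Of the regulatory beta subunits of AMP-activated kinase, PRKAB2 rose (0.67, SE 0.0595), from 331, 387 and 472 to 592, 639 and 732 raw counts. PRKAB1 fell (-0.36, SE 0.0736), from 267, 294 and 326 to 203, 227 and 285, and did not pass without the 3 libraries with epithelial markers (-0.26, SE 0.115, adjusted p = 0.0727). SEH1L, a subunit of the GATOR2 complex (0.29, SE 0.0445), and SESN2, a leucine sensor (0.27, SE 0.0477), were higher. The number past the threshold in this list was 9 without shKDM6B replicate 2 and 7 without the 3 libraries with epithelial markers.

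In the list of mTORC2 partners, substrates and assembly factors, 3 of 9 were higher and 0 lower at the threshold, with a median of 0.109. The share past the threshold was 33.3%, below the 39.1% of all tested genes. SGK1, a kinase activated through mTORC2, rose from 83.1 ± 4.86 to 122 ± 2.57 CPM (SD, n = 3 each; 0.55, SE 0.0479). PRR5 (0.30, SE 0.0883) and the assembly factor gene TELO2 (0.11, SE 0.0410) were higher by smaller amounts. Without the 3 libraries with epithelial markers 1 gene of the list passed, and PRR5 (0.22, SE 0.139, adjusted p = 0.245) and TELO2 (0.13, SE 0.0569, adjusted p = 0.0864) did not. For TELO2 the change was no smaller there and the SE larger. TELO2 lost its call without any 1 of the 6 libraries (adjusted p from 0.0743 to 0.144) and by the DESeq2 Wald test (0.139), as PRR5 did (0.0682). With upper-quartile scaling (0.0874), scaling by genes of low count density (0.126), no filter on low counts (0.0787) or a filter of 1 CPM in 3 libraries (0.0531), TELO2 did not pass either.

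Substrates of mTORC1 and translation factors gave 6 higher genes of 18, 1 lower gene and 11 that did not pass, at a median of 0.023. In all 38.9% passed, against 39.1% of all tested genes, with 33.3% against 20.1% higher and 5.56% against 18.9% lower. The kinase genes EEF2K (0.32, SE 0.0417) and ULK1 (0.26, SE 0.0519) and the lipin gene LPIN1 (0.26, SE 0.0445) were higher. ATG13, a partner of ULK1 in starting autophagy, was the member that fell, from 844, 1059 and 1088 to 681, 672 and 852 raw counts (-0.49, SE 0.0455).

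Among known FOXO target genes, of 20 tested, 9 fell, 3 rose and 8 did not pass, with a median of -0.136. The share lower was 45%, against 18.9% of all tested genes. With scaling by genes of low count density, 5 were lower and 3 higher, and lower calls over all genes went from 2622 to 1915. The list holds IRS2 and RICTOR, described above. Chosen after their values were seen, the autophagy gene GABARAPL1 was lower, from 180, 258 and 236 to 145, 142 and 149 raw counts (-0.68, SE 0.0958), as was the cyclin gene CCNG2 (-0.59, SE 0.0847). Against this direction, KLF2, a transcription factor of lymphocyte quiescence, rose from 704, 746 and 781 to 1336, 1384 and 1527 raw counts (0.88, SE 0.0524, adjusted p = 2.21e-11), and MXI1, which encodes an antagonist of MYC, rose as well (0.70, SE 0.0470). BCL6, RAG1 and S1PR1 had too few counts to be tested. GTAAACA was in the promoter windows of 4 of the 21 listed targets that had one, namely BCL2L11, MXI1, PIK3IP1 and TXNIP.

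**Figure D4:**
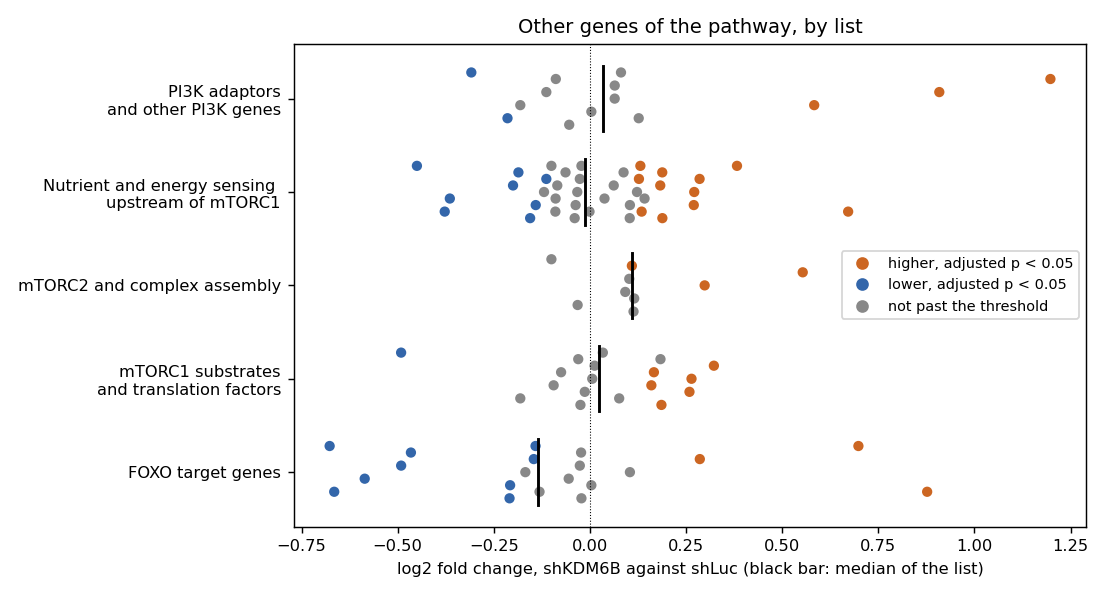
Log2 fold change of shKDM6B against shLuc for each tested gene of the 5 further lists, with orange and blue points past the threshold as higher and lower, and black bars at the list medians. The FOXO target genes have the lowest median, -0.136, with GABARAPL1 at -0.68 and KLF2 at 0.88, and the other medians lie between -0.012 and 0.109.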

How the data were processed

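The authors deposited raw counts per gene symbol for each library and a table of the whole series whose values, a linear signal, equalled these counts divided by 1 factor per library (tolerance 5e-10, relative). The submitters' processing notes name STAR, featureCounts, DESeq and the build GRCh37 (hg19), without versions. Annotation, strand setting and the handling of duplicate or multi-mapping reads: not given in the sources used here. For strand, the library kit named in the labels is not named as one that marks it. In each library 1 line without a count was left out, and the count tables hold no coordinates.

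Counts of all genes were fitted with edgeR 4.0.16 (R 4.3.3): filterByExpr, TMM scaling, glmQLFit and glmQLFTest with group as the only term, over all 6 libraries, with p-values adjusted by Benjamini-Hochberg over 13839 genes. Log2 fold changes are shKDM6B over shLuc, and the SE is that implied by the test statistic. CPM are TMM-scaled, and lengths are merged exons of GENCODE release 29 (GRCh38), another build than the authors'. On data simulated from this comparison (13671 genes tested), the test called 52% of 50 genes set to 1.2-fold and 92% of 50 set to 2-fold. Of 171 calls, 15 were unchanged genes. Only 50 genes were changed at each of 1.2-, 1.5-, 2- and 3-fold in the simulation. In the real data 39.1% of tested genes were called. The Benjamini-Hochberg cutoff depends on the share of changed genes, so the simulated rates do not carry over to these data.

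The labels do not say that the replicates were separate cultures, so p-values reflect only how far these libraries vary, possibly for technical reasons. Members, lists and alternatives were chosen with earlier results of these data known. The rule for naming genes gave raw counts for each member past the threshold with at least 10 counts on average and, from each further list, up to 4 genes past it with the smallest p. Alternatives were other scalings and filters, the replicate number as a block, DESeq2 1.42.0, limma 3.58.1 (voom, and trend on log2 of the deposited values with a pseudocount of 1), a threshold of 0.01, and libraries left out. From the FOXO target list, 1 gene is not reported here and was left out of its counts.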

Additional observations from a re-analysis of the deposited data

How the results depend on the processing

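The 20 calls of members were retained in number by edgeR with DESeq2 size factors or upper-quartile scaling, by a filter of 1 CPM, by limma-voom and limma-trend, and numbered 17 by the DESeq2 Wald test, 18 with scaling by genes of low count density, 19 with no low-count filter, and 18 to 20 with a library left out. In all 16 alternative fits, the replicate block and the 3 libraries left out included, the members called were among these 20 and kept their direction. Whether replicate numbers pair the libraries is not given in the labels and was not settled here. Deviations of same-numbered libraries correlated at 0.116, -0.0767 and 0.152, and those of differently numbered libraries at -0.179 to 0.066. With the replicate block, 20 members and 6218 genes passed, against 5405 genes without it. Over all genes, the count was 3821 by DESeq2, and 3888 at an adjusted p under 0.01, where 18 members passed. Tested members had 0.0022 to 0.467 counts per exon base, with INPP4B, PIK3CD, EIF4E and PHLPP2 the lowest. The SE of the fold change was largest for INPP4B (0.216) and PIK3CD (0.143), which had the fewest raw counts of the tested members.

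Signs turned for 11 members and for TRAF7, none of which had passed. With scaling by genes of low count density, TRAF7 was at 0.0072, PIK3CA was at 0.041, AKT2 0.023, RRAGA 0.040, RPS6KB2 0.014, GSK3B 0.0067 and FOXO3 0.0084. INSR was at -0.0030 with DESeq2 size factors, -0.017 with upper-quartile scaling, -0.0018 with the 1 CPM filter and -0.0030 by DESeq2. PIK3CA was at 0.00062 with no filter, 7.9e-05 with the replicate block and 0.00068 by limma-trend, and RRAGA at 0.0011 with the block and 0.013 by limma-trend. AKT1 was at -0.00027 with upper-quartile scaling. Without the 3 libraries with epithelial markers, which leaves 1 shKDM6B library assumed to vary like the shLuc libraries, PIK3CB was at -0.012.

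Leaving out 1 library at a time gave ranges of -0.027 to 0.029 for INSR, -0.057 to 0.053 for PIK3CA, -0.0083 to 0.030 for AKT1, -0.0089 to 0.18 for PHLPP1, -0.060 to 0.075 for RRAGA, -0.014 to 0.042 for EIF4E and -0.073 to 0.019 for FOXO3, and -0.044 to 0.029 for the ratio of GSK3A to GSK3B. Without the 3 libraries with epithelial markers that ratio differed by 0.018 on the log2 scale, AKT1 to AKT2 by 0.068, IGF1R to INSR by 0.39, PIK3CA to PIK3CB by -0.012 and TSC1 to TSC2 by -0.80. The sensing list had 9 to 18 genes past the threshold with a library left out, 9 by DESeq2, 7 without the 3 libraries and 10 at the stricter threshold. With scaling by genes of low count density, 5 FOXO targets were lower, against 9. The mTORC2 list had 6 with the replicate block, 1 by DESeq2 and 1 without the 3 libraries.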

Other observations

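TSC2 and MLST8, which both rose, are neighbours on chromosome 16, and the genes around them were looked up after these values had been seen. In RefSeq's gene order, the 5 tested genes from TSC2 to MLST8 are TSC2, PKD1, RAB26, TRAF7 and MLST8. Of these, 4 were higher and TRAF7 did not pass (log2 difference -0.03); the median of the 5 was 0.32. Of the 10 tested genes before TSC2, 4 were higher and 0 lower, and of the 10 after MLST8, 3 were higher and 1 lower. In the whole stretch of 25 genes 11 were higher, 1 was lower and 13 were not past the threshold, against 20.1% higher and 18.9% lower among all tested genes. The 11 higher genes include TSC2 and MLST8, whose rise led to the choice of the stretch. They also include PKD1 and NTHL1, which share exon bases with TSC2. The total is therefore not comparable with the share of all tested genes, and no test was made.

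The FOXO targets BCL6, RAG1 and S1PR1 had too few counts for a test. BCL6 had 8, 20 and 8 raw counts in the shLuc libraries against 2, 4 and 3 in the shKDM6B libraries, in replicate order. RAG1 had 9, 10 and 8 against 1, 1 and 6. S1PR1 had a count of 1 in a single shKDM6B library and 0 in the others.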
